A study of Oryza sativa with 5 samples.

Results

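The root transcriptome of rice plants labelled RCc3::OsNAC6 was compared with that of nontransgenic (NT) plants of the cultivar Nipponbare. The comparison rests on 2 of the 5 libraries of the study, chosen by their labels, with 1 library on each side. Both were made from whole roots of seedlings at an age of 2 weeks, started on agar medium and then grown in pots of soil in a greenhouse without any stress treatment. RCc3::OsNAC6 plants are Nipponbare that carry the coding sequence of OsNAC6 behind the promoter of RCc3, a rice gene expressed in roots, so both libraries share the cultivar and the growth conditions. The other 3 libraries were GOS2::OsNAC6 (Nipponbare, OsNAC6 behind a promoter active throughout the plant), NT plants of the cultivar Hwayoung, and nac6, a mutant of OsNAC6 in Hwayoung. Several homozygous RCc3::OsNAC6 lines were selected in the study, but how many lines and plants gave the RNA of a library is not given in the sources used here. In whole roots, fewer cells of a type and less RNA per cell cannot be told apart.

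OsNAC6 belongs to the NAC family of plant transcription factors, many of which are induced by drought, salt and abscisic acid. Grasses take up iron with mugineic acids, small chelators made from nicotianamine that are secreted into the soil and taken back up with the bound iron. Nicotianamine is made from S-adenosylmethionine, and the methionine used is regenerated by the methionine salvage cycle. The question put to the comparison was which root transcripts differ when OsNAC6 is driven by a root promoter.

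OsNAC6 itself did not differ by label. Its transcript (Os01t0884300-01, chromosome 1) had 6215 reads in NT and 6050 in the library labelled RCc3::OsNAC6, a log2 ratio of -0.02 ± 0.03 (± is a standard error from read counting throughout, with n = 1 library per group and no replicate check). The RCc3 gene (Os02t0662000-01) had 17109 and 24905 reads, and the reference gene UBIQUITIN 1 (Os06t0681400-01) had 35297 and 48573. Their log2 ratios were 0.56 ± 0.02 and 0.48 ± 0.01. The gene that gave the GOS2 promoter, which encodes a translation factor (Os07t0529800-01), had a ratio of -0.44 ± 0.03. The targeted gene thus did not bear out the label in this library. The study itself reported high OsNAC6 RNA in roots of RCc3::OsNAC6 lines, by RNA gel blot of older plants. It also measured OsNAC6 by qRT-PCR in roots of 2-week-old plants, the age of these libraries. It attributed the opposite root phenotypes of nac6 and the overexpressors to that expression level. Every direction below is one between 2 libraries, written as "the library labelled RCc3::OsNAC6" or, in counts of families, simply as higher or lower.

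The libraries held 26838552 reads in NT and 25930687 in the library labelled RCc3::OsNAC6, and 38939 and 39010 transcripts had at least 1 read. The 10 most abundant transcripts took 1.47% and 1.58% of the reads. Root markers were present in both, with a summed normalized count of 24959 in NT and 30423 in the other library over 5 loci, and none of them passed 2-fold. Leaf and shoot markers (photosystem, chlorophyll a/b and small subunit of RuBisCO, 54 transcripts, none at 0 in both libraries) summed to 780 and 484, so that 0.00587% and 0.00373% of reads came from them. Of 17 such transcripts that passed the filter on low values, 7 were lower and 0 higher. These markers were matched by the wording of the function column, which left out Os02t0152400-01, similar to RuBisCO, with 42.1 and 562 normalized counts. The lower sum holds only without that transcript. Seed protein transcripts summed to 4708 and 5149. The part of other tissues in the differences below was not tested.

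Across the transcriptome, 32487 transcripts of 26564 loci had a mean of at least 10 normalized counts. With a difference of 2-fold or more as the criterion, 1452 (4.47%) lay above NT in the RCc3::OsNAC6 library and 1959 (6.03%) lay below it. These shares are the background against which the families are read. The median log2 ratio was 0.01 and the middle 95% of transcripts lay between -1.52 and 1.24. The share past 2-fold fell with the level, from 13.1% higher and 11.1% lower at means of 10 to 20 to 1.71% higher and 4.13% lower at means of 500 and over. Of the 3411 transcripts past 2-fold, 99.1% had a 95% counting interval clear of 0. Each deposited mean was split into 2 read count columns, taken as repeat counts of the same library. With each column alone, 2419 (70.9%) passed 2-fold in the same direction. Of 4692 loci with several tested isoforms, 0 had 1 isoform 2-fold higher and another 2-fold lower. Function descriptions placed 16.4% of the tested transcripts in 1 of 55 families, whereas 29.4% were described only as hypothetical or non-protein coding.

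**Figure D1:**
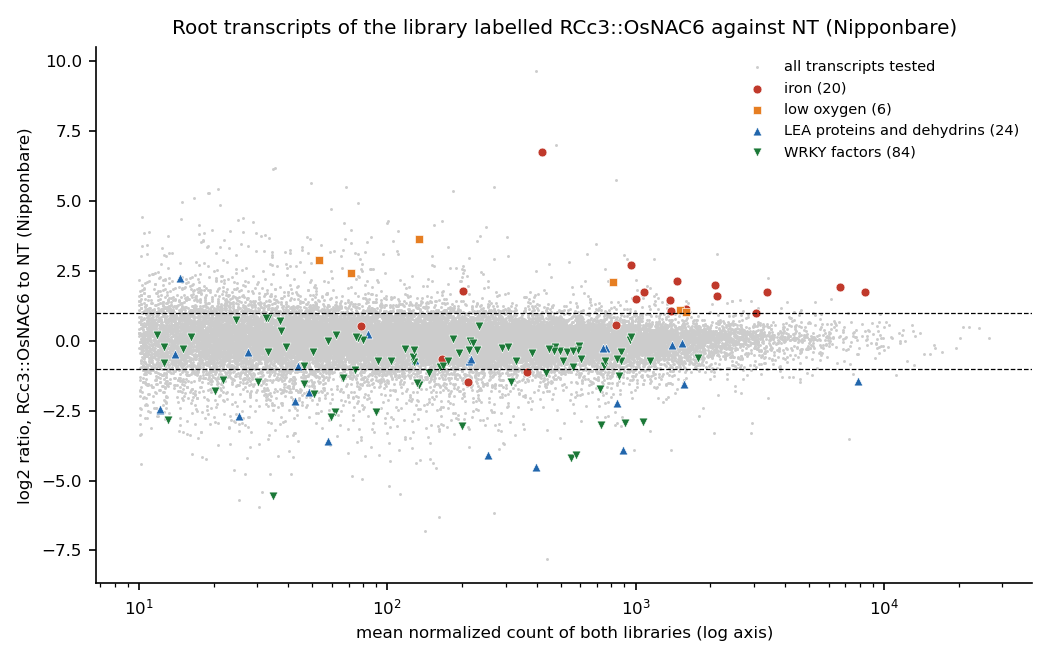
Log2 ratio of the library labelled RCc3::OsNAC6 to NT (Nipponbare) against the mean normalized count of both libraries (log axis), 1 point per transcript tested, with dashed lines at 2-fold. Iron loci lie mostly above the upper line and all 6 low oxygen loci do, whereas 12 of 24 LEA and dehydrin transcripts and 25 of 84 WRKY transcripts lie below the lower line.

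The listed iron uptake loci were higher together. Of 20 listed iron loci, 14 were at least 2-fold higher and 2 at least 2-fold lower, and the list median was 1.54 on the log2 scale against 0.01 for all transcripts. The list was chosen with earlier results of these data known. By function description, siderophore, iron and metal transporters counted 6 of 29 (20.7%) higher and 2 lower, with a median of 0.20. Nicotianamine proteins counted 5 of 10 higher and 1 lower. By role, all 16 listed loci of chelator synthesis, transport and regulation had ratios above 0, and 14 of them passed 2-fold. All 3 nicotianamine synthase genes were among them. OsNAS1 (Os03t0307300-01) had 5695 reads in NT and 21064 in the library labelled RCc3::OsNAC6, a log2 ratio of 1.91 ± 0.03. OsNAS2 (Os03t0307200-01) had 7829 and 25783 reads (1.74 ± 0.02). These 2 genes are near-identical neighbours on chromosome 3, so that their separate values are uncertain. OsNAS3 (Os07t0689600-01), on chromosome 7, had 518 and 3322 reads (2.69 ± 0.09).

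The next steps of the pathway followed the same direction. OsNAAT1 (Os02t0306401-00), the aminotransferase that acts on nicotianamine, had 3121 reads in NT and 10438 in the other library (1.76 ± 0.04). OsDMAS1 (Os03t0237100-01), which completes deoxymugineic acid, had 2011 and 4384 (1.14 ± 0.05). TOM1 (Os11t0134900-01), which exports it from the root, had 1709 and 6676 (1.98 ± 0.05). Synthesis and export of the chelator were therefore all past 2-fold. The ratio was similar for ENA1 (Os11t0151500-01), an exporter of nicotianamine, with 184 and 624 reads (1.76 ± 0.16).

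Uptake transporters also passed 2-fold. OsYSL15 (Os02t0650300-01), which brings iron bound to deoxymugineic acid into the root, had 1111 and 4792 reads (2.13 ± 0.06). OsYSL2 (Os02t0649900-00), a transporter of metals bound to nicotianamine in rice, had 14 reads in NT and 1667 in the library labelled RCc3::OsNAC6 (6.74 ± 0.45). It had the largest ratio of the list, and its NT value rests on few reads. OsIRT1 (Os03t0667500-01) and OsIRT2 (Os03t0667300-00), transporters of ferrous iron, had ratios of 1.44 ± 0.06 and 1.50 ± 0.07. OsNRAMP1 (Os07t0258400-01), a metal transporter, had 1.07 ± 0.05. OsOPT7 (Os03t0751100-01), an oligopeptide transporter, had 1.59 ± 0.05, and MIR (Os12t0282000-01), a mitochondrial protein induced by iron deficiency in rice, had 1.74 ± 0.07.

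The regulators and the storage proteins differed from this. OsIRO2 (Os01t0952800-01), a bHLH factor that activates uptake genes in rice, had 4158 and 8098 reads, a ratio of 0.98 ± 0.04 that stayed just under 2-fold. OsIRO3 (Os03t0379300-01), a bHLH repressor, had 0.55 ± 0.07. Of the 4 storage loci, OsFER2 (Os12t0106000-01) had 1015 and 455 reads (-1.13 ± 0.11) and OsVIT2 (Os09t0396900-01), a vacuolar iron transporter, had 634 and 222 (-1.48 ± 0.15). OsFER1 (Os11t0106700-02) had -0.65 ± 0.15 and OsVIT1 (Os04t0463400-01) had 0.54 ± 0.22. OsFER1 and OsFER2 are near-identical copies on chromosomes 11 and 12, so their separate values are uncertain. Further members of the metal families were lower, the zinc transporter transcript Os07t0232800-00, with 1875 and 384 reads (-2.26 ± 0.11), and the aminotransferase Os11t0644800-00, with 323 and 58 (-2.41 ± 0.27).

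**Figure D2:**
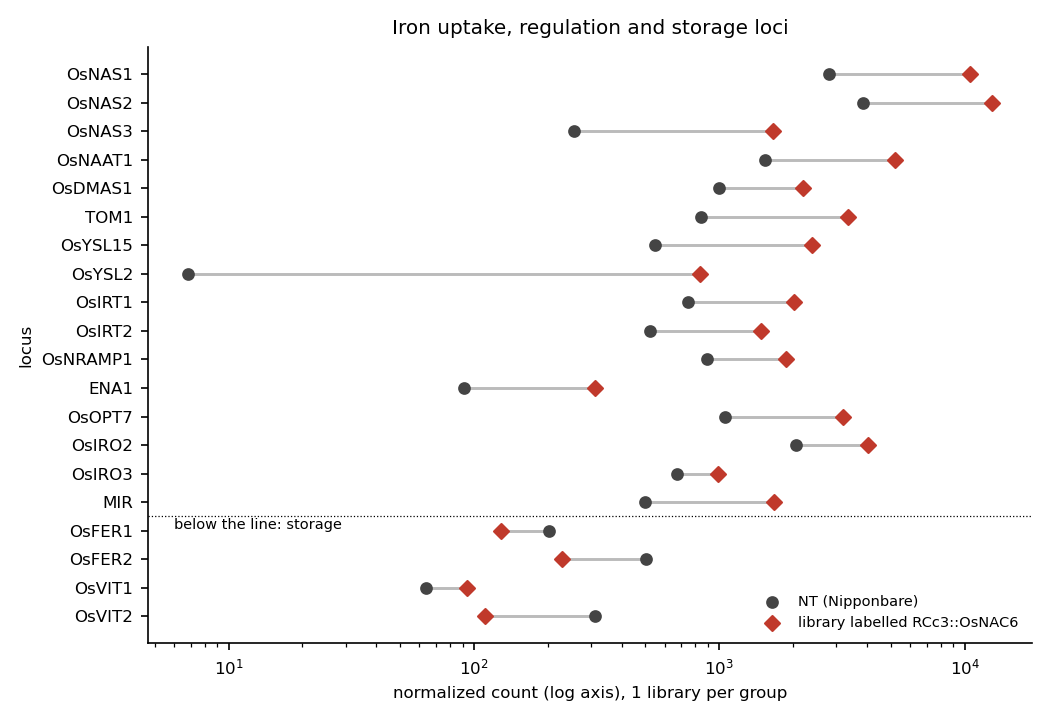
Normalized count (log axis) of the 20 listed iron loci in NT (Nipponbare, circles) and in the library labelled RCc3::OsNAC6 (diamonds), 1 library each. The 16 loci above the dotted line are all higher in the library labelled RCc3::OsNAC6, whereas 3 of the 4 storage loci below it are lower.

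Side by side, the same loci had these values in the other comparisons, of which GOS2::OsNAC6 shares the NT (Nipponbare) library. For GOS2::OsNAC6, 9 of the 20 loci were at least 2-fold higher, against a background of 1.83%, and 0 at least 2-fold lower, against 2%. OsNAS1 had 22856 reads in the library labelled GOS2::OsNAC6 and a ratio of 2.27 ± 0.03, and OsYSL2 had 61 reads and 2.24 ± 0.50. For nac6 against NT (Hwayoung), 1 of the 20 was higher, against 6.3%, and 10 were lower, against 3.65%. OsNAS1 had 1034 reads in the Hwayoung control and 136 in nac6 (-2.71 ± 0.17). OsNAC6 had ratios of 0.37 ± 0.03 and 0.31 ± 0.03 in these 2 comparisons, under 2-fold in GOS2::OsNAC6 and not lower in the library labelled nac6.

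Methionine salvage loci were higher in this comparison as well. Of 9 tested loci of the methionine list, 5 were at least 2-fold higher, 0 lower, and all 9 had ratios above 0, with a median of 1.10. OsMTK1 (Os04t0669800-01), methylthioribose kinase, had 2366 and 5779 reads (1.31 ± 0.05). OsIDI2 (Os11t0216900-02), the isomerase of the next step, had 519 and 1097 (1.10 ± 0.10). Os11t0484000-01, a class II aldolase-like protein listed as the dehydratase and enolase-phosphatase, had 6515 and 18149 (1.50 ± 0.03). These 3 lay between 2-fold and 3-fold. OsIDI1 (Os10t0419400-01), acireductone dioxygenase, had 29 and 267 reads (3.13 ± 0.35), a larger ratio on fewer reads. Its ratio was 0.54 ± 0.45 for GOS2::OsNAC6. In NT (Hwayoung) and nac6 it had 1788 and 2722 reads (0.80 ± 0.06). The study reported OsIDI1 as down-regulated in nac6, and whether it meant this locus was not checked. OsFDH (Os06t0486800-01), a mitochondrial formate dehydrogenase, had 3197 and 8547 (1.44 ± 0.04). The S-adenosylmethionine synthetases SAMS1 (Os05t0135700-01) and SAMS2 (Os01t0323600-01), both abundant, had 0.28 ± 0.02 and 0.39 ± 0.02. SAMS3 (Os01t0293000-01) had 8 and 4 reads and was not tested, and OsMTN (Os06t0112200-01) and OsAPT1 (Os12t0589100-01) had 0.74 ± 0.06 and 0.91 ± 0.03.

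Some sulfur transcripts were higher as well. Of 34 tested transcripts described as sulfate transporters or sulfotransferases, 10 (29.4%) were at least 2-fold higher and 1 was lower, although the median was only 0.23. The other 23 did not pass 2-fold, and the summed normalized count was 5585 in NT and 5876 in the other library. The largest ratios were those of the sulfotransferases Os11t0505300-01, with 136 and 663 reads (2.28 ± 0.18), and Os04t0526300-00, with 43 and 187 (2.08 ± 0.31). The sulfate transporter Os03t0196000-00 had 340 and 739 (1.13 ± 0.12), and the 1 that was lower, Os03t0161200-01, named for that after its values were seen, had 1275 and 610 (-1.04 ± 0.09). Cysteine synthase Os04t0165700-01, which makes the precursor of methionine, had 2383 reads in NT and 11223 in the library labelled RCc3::OsNAC6 (2.25 ± 0.04). It had the largest rise among the 469 transcripts whose mean reached 3000 normalized counts, of which 12 were 2-fold higher and 16 lower. This level was chosen after the values were seen.

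The listed low oxygen loci were all higher. Pyruvate decarboxylase and alcohol dehydrogenase carry out ethanol fermentation, and non-symbiotic hemoglobins are induced with them when oxygen is low. All 6 listed loci passed 2-fold upwards, with a median of 2.25. This list, like that of iron, was chosen with earlier results of these data known. OsPDC1 (Os05t0469600-01) had 24 reads in NT and 188 in the library labelled RCc3::OsNAC6 (2.89 ± 0.39), and OsPDC2 (Os03t0293500-02) had 1940 and 4133 (1.11 ± 0.05). OsADH1 (Os11t0210300-01) had 622 and 2620 (2.09 ± 0.09), and its neighbour OsADH2 (Os11t0210500-01) had 2116 and 4306 (1.04 ± 0.05). Both decarboxylases and both dehydrogenases were therefore higher, the less abundant one of each pair by more. OsHb1 (Os03t0233900-01) had 44 and 241 reads (2.42 ± 0.30), and OsHb2 (Os03t0226200-01) had 38 and 496 (3.65 ± 0.31). The library labelled GOS2::OsNAC6 had between 31 reads for OsPDC1 and 2738 for OsPDC2, with ratios between 0.43 ± 0.06 for OsADH2 and 1.15 ± 0.37 for OsHb2. The Hwayoung libraries stood apart, with 15695 reads of OsPDC1 and 34010 of OsADH2 in NT (Hwayoung) and 18654 and 62698 in nac6.

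Nitrogen and phosphate loci gave smaller differences. Of 12 nitrogen loci, 2 were 2-fold higher, 0 lower, and the median was 0.17. These were the nitrate reductases OsNIA1 (Os08t0468100-01), with 221 and 453 reads (1.05 ± 0.16), and OsNIA2 (Os02t0770800-01), with 20 and 90 (2.11 ± 0.44). Nitrite reductase OsNiR (Os01t0357100-01) had 0.84 ± 0.15, and the high affinity nitrate transporters OsNRT2.1 (Os02t0112100-00) and OsNRT2.2 (Os02t0112600-01), which are near-identical copies, had 0.78 ± 0.10 and 0.61 ± 0.10. The transporter partner OsNAR2.1 (Os02t0595900-00) was at -0.03 ± 0.04. Among all 21 tested transcripts described as nitrate or ammonium transporters, 0 were higher and 2 lower, and 12 had ratios below 0. The lower ones were Os01t0547600-00, similar to the Arabidopsis nitrate transporter NRT2.7, with 302 and 104 reads (-1.51 ± 0.21), and Os06t0581000-01, similar to the nitrate transporter NTL1, with 332 and 157 (-1.06 ± 0.18). Ammonium transport and assimilation lay below 0, with OsAMT1;3 (Os02t0620600-01) at -0.74 ± 0.07, OsGS1;2 (Os03t0223400-01), the abundant root glutamine synthetase, at -0.41 ± 0.01, and OsNADH-GOGAT1 (Os01t0681900-01), a glutamate synthase locus whose transcript is described in the table as non-protein coding, at -0.96 ± 0.13. OsAMT1;1 (Os04t0509600-01) and OsAMT1;2 (Os02t0620500-00) had -0.41 ± 0.06 and -0.19 ± 0.08, and only OsGS1;1 (Os02t0735200-02) of these was above 0, at 0.38 ± 0.03.

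Phosphate starvation markers were lower. The RNA OsIPS1 (Os03t0146800-01), induced by phosphate starvation, had 197 reads in NT and 57 in the library labelled RCc3::OsNAC6 (-1.73 ± 0.28). The transporters OsPT2 (Os03t0150800-01) and OsPT8 (Os10t0444700-01) had 2168 and 1061 (-1.01 ± 0.07) and 4637 and 2520 reads (-0.86 ± 0.05). OsSPX1 (Os06t0603600-01), a phosphate sensor protein, had 501 and 276 (-0.83 ± 0.14), OsSPX2 (Os02t0202200-01) had -0.48 ± 0.09, and OsPT6 (Os08t0564000-01) had 0.30 ± 0.36. OsSPX3 (Os10t0392600-01) had 15 and 2 reads, under the filter, with a log2 ratio of -2.09 and an interval of -3.65 to -0.52. Of 6 tested loci of the list, 2 were 2-fold lower and 0 higher, with a median of -0.85. Among all 14 tested transcripts described as phosphate transporters or SPX proteins, 6 were lower and 0 higher, and the median was -0.93. The largest fall there was Os04t0186400-02, with 1955 and 510 reads (-1.92 ± 0.09).

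Other transporters moved in both directions. The high-affinity potassium transporter transcript Os09t0448200-01 had 589 reads in NT and 63 in the library labelled RCc3::OsNAC6 (-3.16 ± 0.25), and OsHAK1 (Os03t0575200-01), a potassium uptake transporter, had 1002 and 359 (-1.46 ± 0.12). Potassium and sodium transporters counted 7 of 50 lower and 2 higher. Sugar transporters and SWEET proteins counted 6 higher and 6 lower of 51. A protein of the SWEET type (MtN3 family), Os01t0881300-02, had 890 and 7592 reads (3.11 ± 0.07). Aquaporins had 5 of 22 ratios above 0 and a median of -0.28, but only 1 was past 2-fold in each direction. Of these, Os04t0521100-01 was abundant, with 10445 and 4910 reads (-1.07 ± 0.03). The silicon transporters Lsi1 (Os02t0745100-01), Lsi2 (Os03t0107300-01) and Lsi6 (Os06t0228200-01) had 0.41 ± 0.02, -0.07 ± 0.02 and -0.67 ± 0.07.

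**Figure D3:**
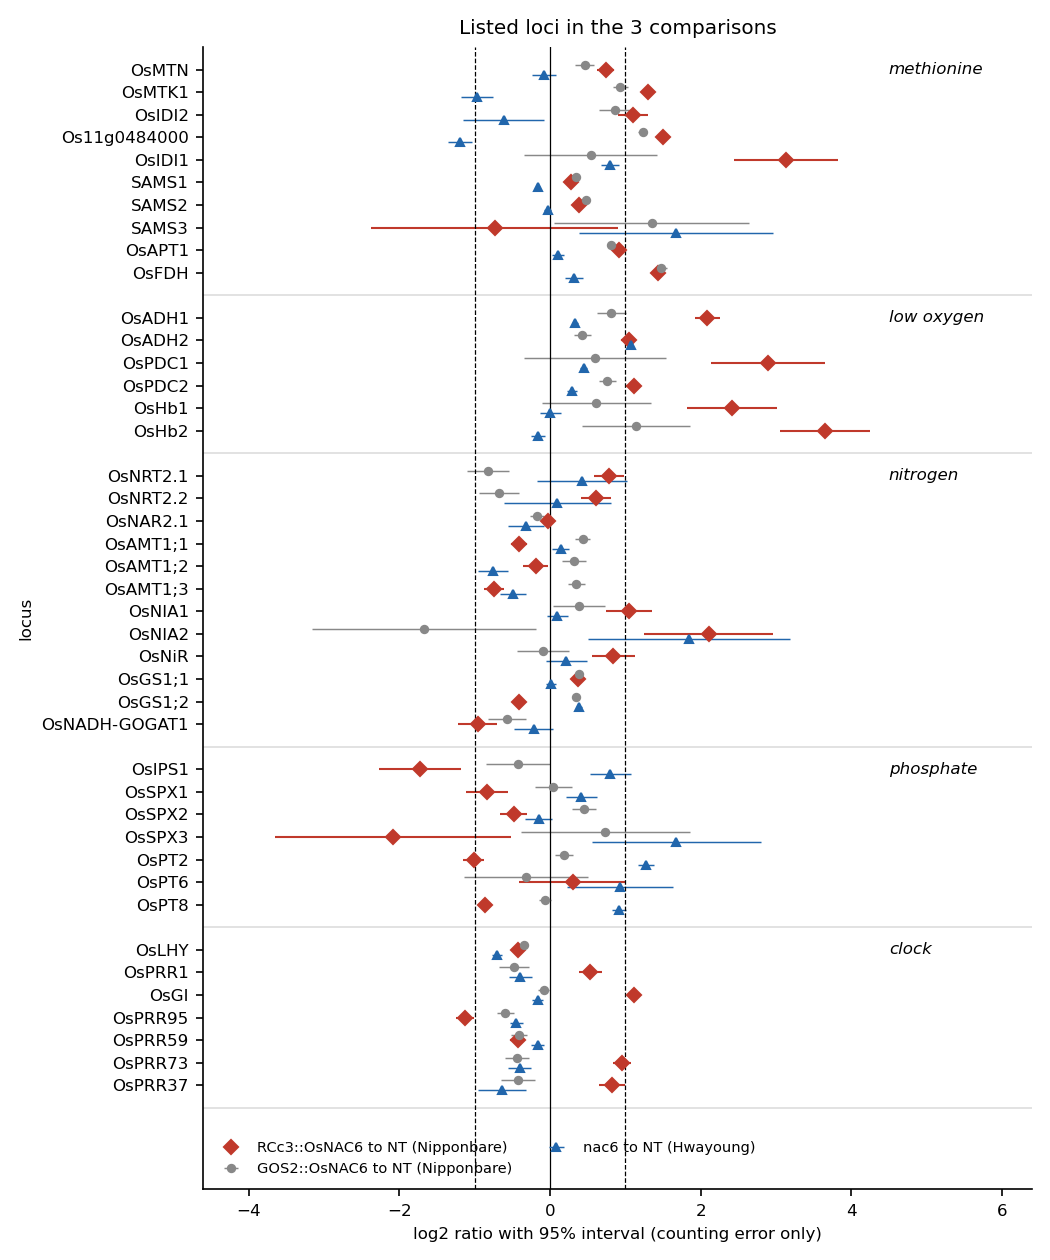
Log2 ratios with 95% counting intervals for the loci of 5 lists in RCc3::OsNAC6 (diamonds) and GOS2::OsNAC6 (circles) against the same NT (Nipponbare) library, and in nac6 against NT (Hwayoung) (triangles). For RCc3::OsNAC6 all 6 low oxygen loci lie beyond the right dashed line at 2-fold, whereas 6 of the 7 phosphate loci lie left of 0.

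Among families of 20 or more tested transcripts, proteins of drying tissue had the highest share of lower members. Late embryogenesis abundant (LEA) proteins and dehydrins accumulate in drying plant tissue and are induced by abscisic acid. Of 24 tested transcripts of 22 loci, 12 were at least 2-fold lower and 1 was higher, with a median of -1.18. Dehydrin RAB 16D (Os11t0453900-01) had 1540 reads in NT and 65 in the library labelled RCc3::OsNAC6 (-4.51 ± 0.24). The neighbouring dehydrins RAB 16C (Os11t0454000-01) and RAB 16B (Os11t0454200-01) had 90 and 12 (-2.69 ± 0.51) and 141 and 30 reads (-2.14 ± 0.36). Os11t0451700-00, similar to the dehydrin RAB-17, had 218 and 16 (-3.60 ± 0.44). With Os11t0454300-01, at 678 and 104 reads (-2.66 ± 0.20), 5 neighbours on this stretch of chromosome 11 were lower, although related copies can share reads. The group 3 LEA transcript Os05t0542500-01 had 3391 and 220 (-3.92 ± 0.13), and Os03t0168100-01, with LEA repeats, had 975 and 55 (-4.08 ± 0.26). The most abundant dehydrin, Os02t0669100-01, had 23238 and 8347 (-1.46 ± 0.02). The 1 transcript that was higher, Os02t0564600-01, had 9 and 49 reads (2.25 ± 0.58). RAB 16B, RAB 16C, Os11t0454300-01 and the last transcript were named after their values were seen.

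Some single transcripts linked to drought or abscisic acid and the protein phosphatases 2C had lower values. Heat shock and universal stress proteins did not shift in this way as families, and NAC and WRKY factors are described below. Abscisic stress ripening protein 1 (Os01t0959100-01) had 589 reads in NT and 26 in the other library (-4.38 ± 0.36). The homeobox-leucine zipper factor HOX22 (Os04t0541700-01) had 1270 and 158 (-2.97 ± 0.16). Protein phosphatases 2C, some of which turn off abscisic acid signalling, counted 11 of 67 lower and 0 higher, with a median of -0.29. Os05t0457200-01 of this family had 351 and 43 reads (-2.95 ± 0.30), and Os06t0698300-01 had 400 and 81 (-2.24 ± 0.23). Myo-inositol-1-phosphate synthase (Os03t0192700-01) had 14614 and 6095 (-1.24 ± 0.03). Heat shock proteins showed no such shift as a family, with 9 of 79 lower, 4 higher and a median of -0.10, but HSP101 (Os05t0519700-01), a chaperone that dissolves protein aggregates, had 629 and 72 reads (-3.08 ± 0.23). Universal stress proteins counted 4 of 11 higher and 1 lower, but their summed normalized count was 3797 in NT and 3218 in the other library. The lower one, Os02t0665800-01, had 1615 and 780 reads (-1.03 ± 0.08). Of the 11, 8 passed the filter in the GOS2::OsNAC6 comparison.

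For GOS2::OsNAC6 against NT (Nipponbare), the LEA and dehydrin transcripts had a median of -0.11, with 5 of 23 lower and 0 higher. RAB 16D had 430 reads there (-1.57 ± 0.10), and Os03t0168100-01 had 204 (-1.98 ± 0.15). In nac6 against NT (Hwayoung) the family had a median of 0.44, with 4 higher and 0 lower.

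Of the transcription factor families, NAC and WRKY factors had the highest shares of lower members. NAC factors, the family of OsNAC6, counted 18 of 56 (32.1%) lower and 2 higher, with a median of -0.56, and 45 of 56 had ratios below 0. The largest fall was Os03t0133000-01, similar to NAC-domain protein 14, with 595 reads in NT and 72 in the library labelled RCc3::OsNAC6 (-2.99 ± 0.23). Os11t0154500-01 had 464 and 83 (-2.44 ± 0.22), and Os12t0123800-01 had 331 and 96 (-1.75 ± 0.22). Among abundant members, Os01t0261200-01 had 3302 and 1344 (-1.28 ± 0.06) and Os08t0535800-02 had 2546 and 838 (-1.58 ± 0.08). The latter 2 were named after their values were seen. OsNAC6, in the same family, stayed near 0.

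WRKY factors, which act in defence and stress responses, counted 25 of 84 (29.8%) lower and 0 higher, and 69 of 84 had ratios below 0. WRKY76 (Os09t0417600-01), a repressor of blast defence in rice, had 2106 reads in NT and 111 in the library labelled RCc3::OsNAC6 (-4.20 ± 0.18). WRKY62 (Os09t0417800-01), next to it on chromosome 9, had 3242 and 410 (-2.96 ± 0.10). WRKY45 (Os05t0322900-01), which acts in salicylic acid dependent defence of rice, had 3813 and 505 (-2.89 ± 0.09). Both activators and repressors of defence were thus among the falls. WRKY62 and this WRKY45 isoform were named after their values were seen. The family median was -0.64 for RCc3::OsNAC6, -0.09 for GOS2::OsNAC6, with 12 of 83 lower and 1 higher, and 0.41 for nac6, with 18 higher and 1 lower.

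The other factor families lay closer to the shares over all transcripts. Homeobox factors counted 12 of 119 (10.1%) lower and 2 higher, MYB factors 7 of 108 (6.48%) lower and 5 higher, AP2/ERF factors 8 of 83 (9.64%) lower and 5 (6.02%) higher, and bZIP factors 2 of 45 (4.44%) lower and 0 higher. The bHLH factors moved in both directions, with 9 of 101 higher and 8 lower. Os10t0376900-01 of this family had 65 reads in NT and 878 in the library labelled RCc3::OsNAC6 (3.74 ± 0.24), whereas Os04t0301500-01 had 254 and 26 (-3.17 ± 0.37). The starch biosynthesis factor Os05t0121600-01 of the AP2 family was the most abundant of the lower factors, with 21183 and 9059 reads (-1.21 ± 0.02).

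Defence and detoxification proteins were often lower as well. Chitinases, thaumatins and other pathogenesis-related proteins counted 14 of 69 (20.3%) lower and 5 higher. The class III chitinase Os01t0660200-01 had 7606 reads in NT and 764 in the library labelled RCc3::OsNAC6 (-3.29 ± 0.07), and chitinase 11 (Os03t0132900-01) had 1208 and 113 (-3.38 ± 0.19). The PR1a-like transcript Os07t0129200-01 had 11962 and 4748 (-1.32 ± 0.03). Cytochromes P450, enzymes that oxidise hormones, toxins and defence compounds, counted 35 of 171 (20.5%) lower and 15 higher. An elicitor-inducible P450 (Os09t0441400-01) showed the largest difference of any transcript with a mean of at least 3000, with 26893 and 2329 reads (-3.51 ± 0.04), and 9862 in the library labelled GOS2::OsNAC6 (-1.18 ± 0.02). Transcripts described in full as glutathione S-transferases counted 7 of 49 lower and 0 higher, a count that leaves out those described as tau class GST or glutathione transferase. Jasmonate, JAZ and lipoxygenase transcripts counted 11 of 47 lower and 1 higher, including allene oxide synthase (Os03t0225900-01), an enzyme of jasmonate synthesis, with 1072 and 376 (-1.49 ± 0.11). Phenylalanine ammonia-lyase (Os04t0518400-01), the entry to phenylpropanoids, had 1659 and 293 (-2.48 ± 0.12). Resistance proteins of the NB-ARC type were split, with 20 of 272 higher and 19 lower, close to the background.

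Heavy metal binding proteins and metallothioneins counted 14 of 59 (23.7%) lower and 2 higher, and 43 did not pass 2-fold. Os02t0818900-01 had the largest fall of the family, with 1068 reads in NT and 71 in the library labelled RCc3::OsNAC6 (-3.85 ± 0.23). One of the 2 that were higher was the abundant type 1 metallothionein Os12t0570700-01, with 5919 and 15223 (1.38 ± 0.03), a small protein that binds metal ions.

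**Figure D4:**
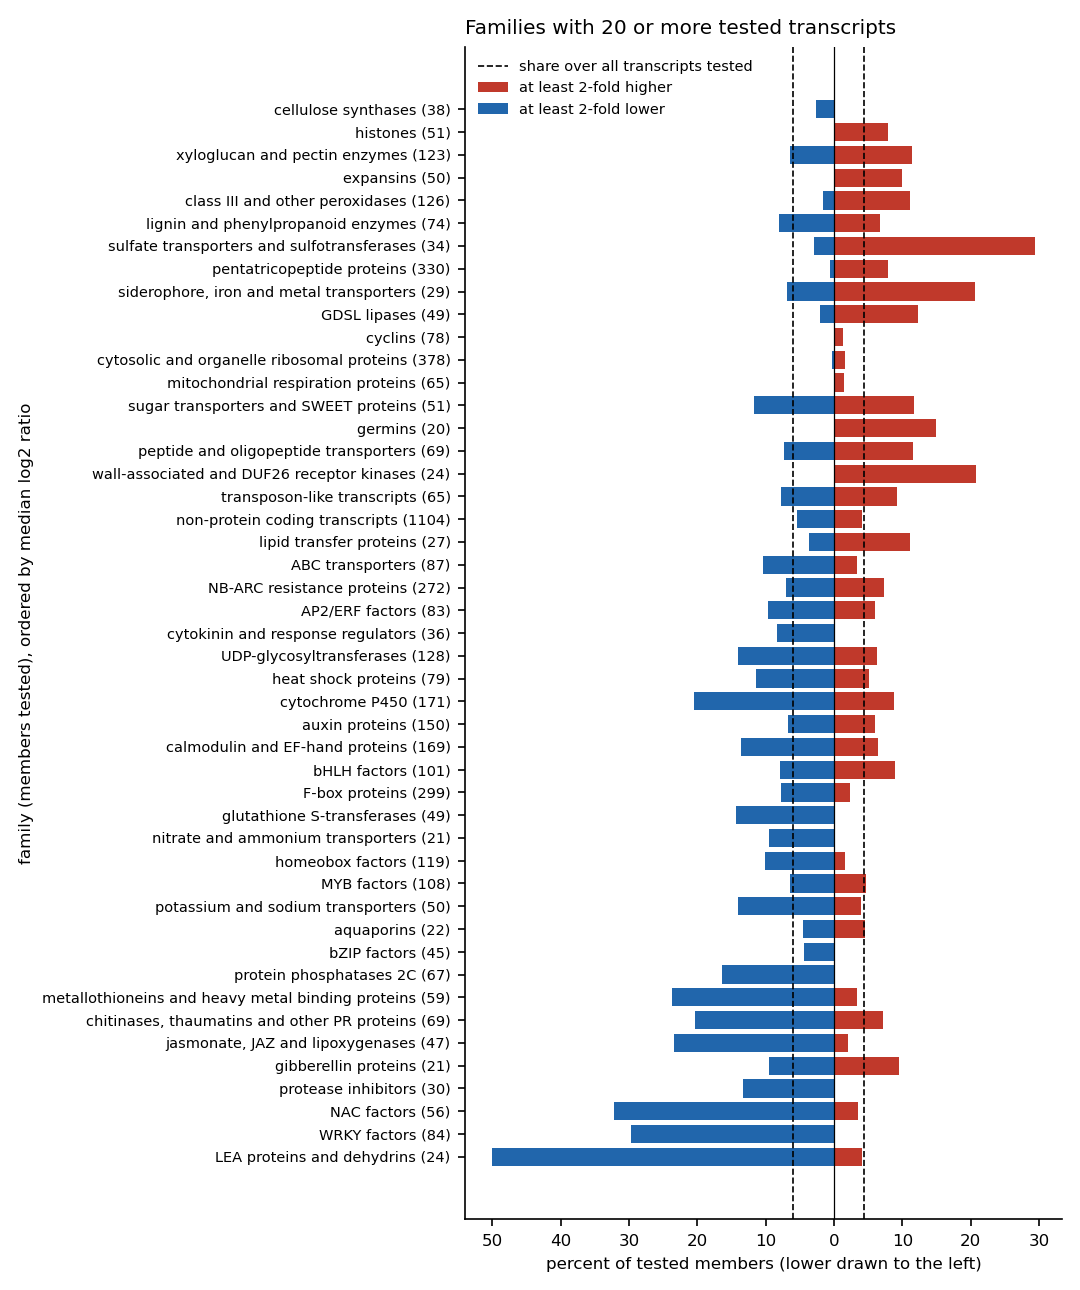
Percent of tested transcripts at least 2-fold higher (right) and at least 2-fold lower (left) in the library labelled RCc3::OsNAC6, for the families with at least 20 tested transcripts (number in brackets), ordered by median log2 ratio, with dashed lines at the shares over all transcripts, 4.47% and 6.03%. The longest bars are those of LEA proteins and dehydrins, NAC factors and WRKY factors to the left, and of sulfate transporters and sulfotransferases to the right.

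Cell wall and growth families had shallow shifts upwards. Class III and other peroxidases, some of which cross-link wall polymers, counted 14 of 126 (11.1%) higher and 2 lower, with a median of 0.32. The abundant peroxidase Os05t0499300-01 had 4794 reads in NT and 10693 in the library labelled RCc3::OsNAC6 (1.17 ± 0.03), and Os01t0963000-01 had 45 and 395 (3.10 ± 0.29). Expansins, which loosen walls during growth, counted 5 of 50 higher and 0 lower, among them OsEXPA2 (Os01t0823100-01), with 684 and 1463 (1.11 ± 0.09). Cellulose synthases had a median of 0.47 and 33 of 38 ratios above 0, but 0 were 2-fold higher and 1 was lower. Histones had a median of 0.45, with 4 of 51 higher and 0 lower, all 4 being under 3-fold. Ribosomal proteins had 308 of 378 ratios above 0, yet only 6 were 2-fold higher and 1 lower, with a median of 0.17. Pentatricopeptide proteins, which process organelle RNA, counted 26 of 330 (7.88%) higher and 2 lower. Cyclins and mitochondrial respiration proteins had 1 transcript each that was higher and 0 lower. Several of these medians were above 0 in the other comparisons as well. For GOS2::OsNAC6 they were 0.36 for peroxidases, 0.41 for expansins, 0.23 for histones and 0.19 for ribosomal proteins. For nac6 against NT (Hwayoung) they were 0.20, 0.11, 0.44 and 0.18. Cellulose synthases had 0.27 and -0.44 in these comparisons, and pentatricopeptide proteins had -0.12 and -0.14.

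Auxin proteins were near the background, with 9 of 150 higher and 10 lower. The auxin response factor transcript Os11t0523800-01 was abundant, with 13694 and 4830 reads (-1.48 ± 0.03), and GH3.3 (Os07t0592600-01), which conjugates auxin, had 810 and 261 (-1.61 ± 0.14). In ethylene synthesis, 2 of 12 were higher and 2 lower, the largest being an ACC oxidase (Os01t0580500-01), with 69 and 297 (2.09 ± 0.25). Gibberellin 20-oxidase 1 (Os03t0856700-01), an enzyme of gibberellin synthesis, had 371 and 769 (1.06 ± 0.12).

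Clock loci differed in both directions. GIGANTEA (Os01t0182600-01) had 5950 reads in NT and 12720 in the library labelled RCc3::OsNAC6 (1.11 ± 0.03), and OsPRR73 (Os03t0284100-01) and OsPRR37 (Os07t0695100-01) had 0.95 ± 0.06 and 0.82 ± 0.09. OsPRR1 (Os02t0618200-01) had 0.54 ± 0.08. OsPRR95 (Os09t0532400-02) went the other way, with 3259 and 1474 reads (-1.13 ± 0.06). OsLHY (Os08t0157600-01), a morning factor, and OsPRR59 (Os11t0157600-01) had -0.42 ± 0.03 and -0.43 ± 0.05. For GOS2::OsNAC6 the ratios of all 7 lay below 0, between -0.59 ± 0.06 for OsPRR95 and -0.08 ± 0.04 for GIGANTEA. Clock transcripts change over the day, and the hour of sampling is not given in the sources used here.

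The largest single differences were near-complete gains and losses. No read of Os07t0511400-01, a transcript of unknown function, was counted in NT, against 1583 in the library labelled RCc3::OsNAC6, at least 533.9-fold higher against a floor of 3 reads. GOS2::OsNAC6 had 1029 reads of it, NT (Hwayoung) 22 and nac6 1358. Os03t0299700-01, a conserved hypothetical protein, had 13 and 1903 reads (6.98 ± 0.46), with 2676 for GOS2::OsNAC6, 7 in NT (Hwayoung) and 1937 in nac6. Both were thus low in each NT library and high in the other 3 libraries. Among rises with a described function were an acyl carrier protein desaturase (Os01t0880800-01), which makes unsaturated fatty acids, with 31 and 635 (4.29 ± 0.33), and a transcript similar to the zinc finger factor PEI1 (Os05t0525900-01), with 32 and 588 (4.14 ± 0.33). A transcript similar to a cyclic nucleotide-gated channel (Os05t0502000-01) had 71 and 846 (3.56 ± 0.23). The others of the 15 largest rises outside the lists and runs named here had ratios between 3.71 for Os02t0152400-01, similar to RuBisCO, and 5.76 for Os07t0162450-01, of unknown function. These were Os01t0318202-01 (4.27), Os01t0880850-00 (3.92), Os04t0330301-00 (5.34) and Os11t0206000-01 (5.49).

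The falls were led by chromosome 11. Os11t0691100-00, similar to a protein kinase, was at 1779 reads in NT and at 6 in the other library (-7.81 ± 0.58), its neighbour Os11t0691050-00 had 1076 and 13 (-6.15 ± 0.46), and Os11t0687200-03 had 647 and 6 (-6.32 ± 0.59). These 3 were also nearly absent with GOS2::OsNAC6, at 3 to 10 reads, and from NT (Hwayoung), at 0 to 10. In nac6 the first 2 had 3176 and 1799 reads and the last had 1. Within Nipponbare, NT was thus the library that stood apart for them. A malectin-like protein (Os09t0356200-01) had 610 and 24 reads (-4.54 ± 0.37), and a lipase-like protein (Os12t0614500-00) had 445 and 8 (-5.46 ± 0.55). An EF-hand protein (Os03t0812400-01), of a class that binds calcium, had 573 and 28 (-4.23 ± 0.35). The rest of the 15 largest falls were Os01t0644200-01 (-4.38), Os05t0368000-00 (-4.29), Os08t0352100-00 (-4.25), Os05t0217800-01, a BURP domain protein (-3.91), and the LEA, WRKY and ripening transcripts named above, with Os05t0542500-02 at -3.91 and Os09t0417600-02 at -4.08.

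A minority of the loci past 2-fold lay in runs along the chromosomes. The chromosome and order of a locus were read from its identifier. With 1 transcript per locus, 1277 of 26564 loci (4.81%) were 2-fold higher and 1759 (6.62%) lower. By chromosome, between 3.73% (chromosome 2) and 6.13% (chromosomes 11 and 12) were higher, and between 5.65% (chromosome 2) and 8.17% (chromosome 10) lower. Windows of 10 neighbouring tested loci with at least 5 past 2-fold in 1 direction merged into 14 runs of higher loci and 26 runs of lower loci. The runs held 80 of the 1277 higher loci and 159 of the 1759 lower loci, and the number of runs that chance would give was not tested. Of these runs, 1 of the higher and 5 of the lower held a window with 7 or more. Neighbouring identifiers can overlap or be near-identical copies that share reads, which was not tested.

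The densest run lay on chromosome 4, from Os04g0634800 to Os04g0635650, where all 9 tested loci were higher. Their median log2 ratio was 3.36. Several of the 9, such as Os04t0634900-01 with 0 and 20.6 normalized counts, passed the filter only through the library labelled RCc3::OsNAC6. The count of higher loci in this run was therefore partly set by the filter. Os04t0635500-01, similar to a wound induced protein, had 56 reads in NT and 944 in the library labelled RCc3::OsNAC6 (4.06 ± 0.25), and Os04t0635100-00 had 19 and 379 (4.21 ± 0.41). Os04t0634900-01 and Os04t0635000-01 had 0 reads in NT and 41 and 60 in the other library, at least 13.9-fold and 20.2-fold higher. The loci on either side of the run, Os04t0634700-01 and Os04t0635800-01, had log2 ratios of -0.06 and -0.01, so the run ended sharply. With GOS2::OsNAC6 the 9 loci had 1 to 72 reads, as low as in NT. In the Hwayoung libraries they had 166 to 3306 reads (NT) and 114 to 1970 (nac6).

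A run on chromosome 2 held diterpenoid genes. Rice carries gene clusters for diterpenoid phytoalexins, antimicrobial compounds also released by roots, on chromosomes 2 and 4. From Os02g0568700 to Os02g0571100, 7 of 11 tested loci were higher and 0 lower. Some of them, such as Os02t0571000-00 with 2.46 and 41.5 normalized counts, passed the filter only through the library labelled RCc3::OsNAC6. Os02t0570400-01, similar to ent-kaurene synthase, had 151 reads in NT and 519 in the library labelled RCc3::OsNAC6 (1.79 ± 0.18). The copalyl diphosphate synthase-like transcript Os02t0570900-00 had 15 and 147 (3.15 ± 0.46), the terpenoid synthase transcript Os02t0571100-01 had 31 and 275 (3.10 ± 0.34), and the P450 Os02t0570700-01 had 95 and 267 (1.49 ± 0.22). The other P450 loci of the run, Os02t0569000-01, Os02t0569400-01 and Os02t0569900-01, had 0.75 ± 0.29, 0.04 ± 0.42 and 0.21 ± 0.24.

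In the chromosome 4 cluster, looked up after the chromosome 2 run was seen, syn-pimaradiene synthase (Os04t0179700-01) had 85 and 420 reads (2.30 ± 0.22) and the P450 Os04t0180400-01 had 71 and 275 (1.93 ± 0.25). Syn-copalyl diphosphate synthase (Os04t0178300-02), which acts before them, had 1100 and 1384 (0.35 ± 0.08), so the cluster was not higher throughout. Terpene synthases as a family counted 6 of 11 higher and 0 lower, with a median of 1.08. This count includes transcripts of the chromosome 2 run. Members such as Os02t0568700-00, with 2.95 and 39.5 normalized counts, passed the filter only through the library labelled RCc3::OsNAC6. Of the 11, 6 passed the filter in the GOS2::OsNAC6 comparison, with a median of 0.06.

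Runs of lower loci held tandem gene families. On chromosome 1, from Os01g0627500 to Os01g0628000, all 8 tested loci were lower, with a median of -2.62. Of these, 4 were cytochromes P450, Os01t0627500-01 (3857 and 1783 reads), Os01t0627600-01 (1033 and 202), Os01t0627900-01 (417 and 56) and Os01t0628000-01 (85 and 10). The other 4, hypothetical proteins, lie between them by identifier and may share their reads. On chromosome 10, from Os10g0525800 to Os10g0529700, 10 of 15 loci were lower and 0 higher, and 7 of the 10 were glutathione S-transferases. Os10t0528300-01, tau class protein 4, had 3015 and 838 reads (-1.83 ± 0.07), and Os10t0527800-01 had 4052 and 1696 (-1.24 ± 0.06). A P450 run on the same chromosome, from Os10g0513900 to Os10g0516000, had 7 of 7 loci lower, with a median of -1.51. Each of these runs held loci that passed the filter only through NT. Examples, in normalized counts of NT and the other library, were Os01t0628000-01 (42.1 and 5.01), Os10t0529700-01 (15.9 and 5.45) and Os10t0516000-00 (24.7 and 5.99). The counts of lower loci in these runs were therefore partly set by the filter.

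Heavy metal binding proteins made up part of a run on chromosome 2, from Os02g0582600 to Os02g0586000, with 10 of 14 loci lower. Os02t0585200-01 of this run had 474 reads in NT and 65 in the library labelled RCc3::OsNAC6 (-2.81 ± 0.25), and Os02t0584800-01 had 669 and 96 (-2.76 ± 0.21). The last of these runs lay on chromosome 6, from Os06g0146600 to Os06g0147300, with 7 of 9 loci lower, none of which has a described function. Os06t0147300-01, its most abundant member in NT, had 683 and 96 reads (-2.79 ± 0.20).

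**Figure D5:**
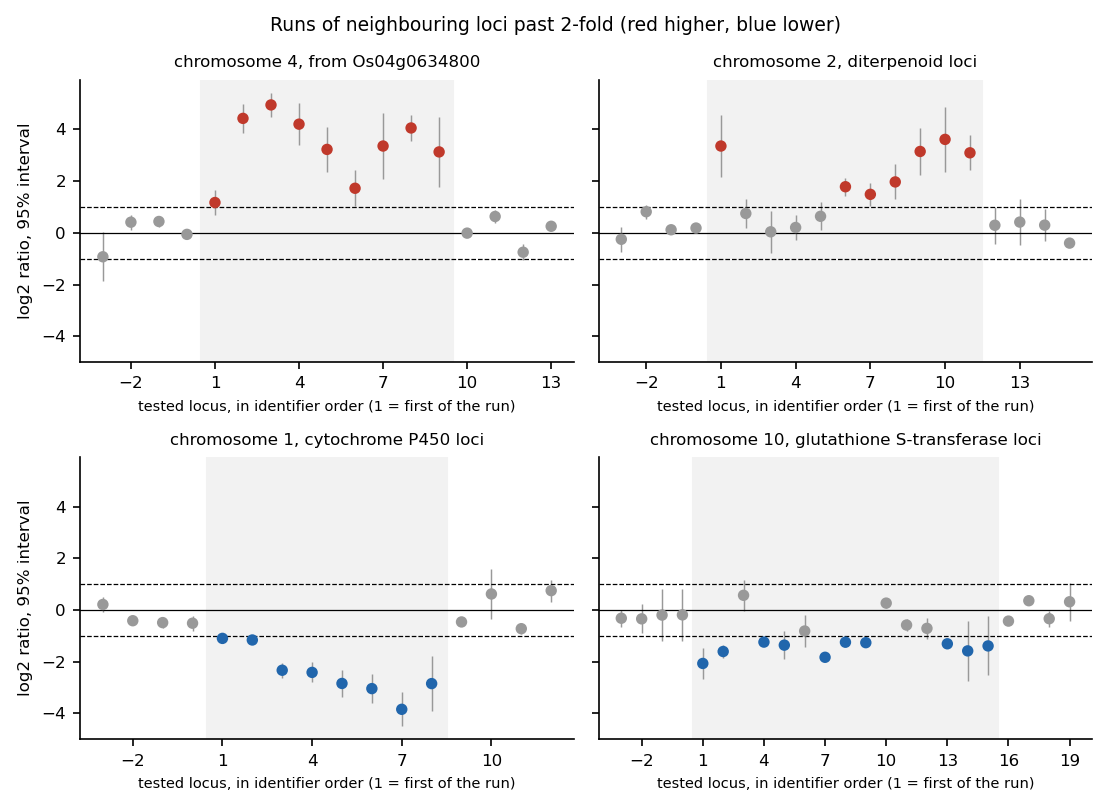
Log2 ratio with 95% counting interval of tested loci in identifier order, for 4 runs of neighbours (grey band) and 4 loci on either side, with red points at least 2-fold higher, blue points at least 2-fold lower and dashed lines at 2-fold. All 9 loci of the chromosome 4 run are higher and all 8 of the chromosome 1 run are lower, whereas the loci outside the bands stay within 2-fold.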

How the data were processed

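The authors aligned and counted reads of strand-specific root libraries. The submitters' processing notes name the genome build IRGSP-1.0, but the aligner, annotation release and counting rule, including strand and shared reads, are not given in the sources used here. The deposited tables, made by the authors with DESeq, give each transcript a mean normalized count (a signal divided by the authors' size factors). Their columns of fold change, p-value and adjusted p-value were not used. Columns were assigned by the library numbers in the labels.

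Each deposited value was split into whole reads of 2 count columns (100% of values). The labels do not name these columns. They were taken as repeat counts of 1 library, not as replicates. They may hold both mates of a pair, in which case the counting errors may be too small. Ratios are log2((RCc3::OsNAC6 + 1)/(NT + 1)), which understates changes of low transcripts, for means of 10 or more. The 2-fold criterion is the study's. With 1 library per group there was no test. Errors and 95% intervals cover counting error only, after scaling the variance by 1.76, the mean chi-square found between count columns. A library with 0 reads was given a floor of 3 reads.

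Members, families and lists were chosen with earlier results of these data known, and word patterns of families were corrected for wrong matches after values were seen. A listed locus was represented by its transcript with the most reads. Gene names of listed loci were assigned by identifier. Named transcripts were OsNAC6 and the promoter genes, the 15 largest rises and 15 largest falls at means of 100 or more, up to 4 per family past 2-fold at means of 50 or more, and the listed loci. Runs with 7 of 10 neighbours past 2-fold, and the diterpenoid run, were described. Scripts ran in Python and were tested on simulated data. Sequences and coordinates were not used here.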

Additional observations from a re-analysis of the deposited data

Results flagged for a closer look

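Among named transcripts that passed the filter in both comparisons, 1 differed in direction. For it, the libraries labelled RCc3::OsNAC6 and GOS2::OsNAC6 lay past 2-fold on opposite sides of the NT (Nipponbare) library they share. The universal stress protein transcript Os05t0355400-01 had 117 reads in NT, 365 with RCc3::OsNAC6 and 44 with GOS2::OsNAC6. The log2 ratios were 1.65 ± 0.20 and -1.11 ± 0.33. OsNIA2 (Os02t0770800-01) had 20 reads in NT, 90 with RCc3::OsNAC6 and 4 with GOS2::OsNAC6. Its ratios of 2.11 ± 0.44 and -1.67 ± 0.76 were also opposite, but it was under the filter in the GOS2::OsNAC6 comparison. With 1 library each, these differences between the libraries were not tested.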

How the results depend on the processing

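The counts of transcripts past 2-fold moved with the filter on low values and with the threshold. With no filter, 2823 were higher and 3086 lower. At means of 50 or more the numbers were 684 and 1217, and at a 4-fold threshold 249 and 421. The median of LEA proteins and dehydrins was -0.73 both without a filter and at means of 50 or more. No paired analysis was possible because each group has 1 library, and no replicate could be left out. Under pseudocounts of 0.5 and 5, scaling by library totals, either count column alone and 1 transcript per locus, the counts stayed within 1.5 times of those reported, and scaling by totals moved the median of all transcripts to 0.04. No median or single ratio that was past its criterion changed sign. Of 496 recomputed medians, 13 moved by more than their counting interval, as did 54 of 1720 single ratios.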
